A study of Mus musculus with 8 samples.

Results

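The genes described here are 10 genes of the colony-stimulating factor (CSF) system and of the transcription factor circuit that makes a myeloid cell. They are the ligand gene Csf1, the receptor genes Csf1r, Csf2ra, Csf2rb and Csf3r, and the transcription factor genes Spi1, Irf8, Cebpa, Cebpb and Egr2. They were taken by symbol from the 18635 genes of the table, and all 10 passed the filter on low values given below. The list was chosen with earlier results of these data known, so counts of called genes describe these data and are no independent test. RNA was sequenced from bone marrow-derived macrophages (BMDMs) that had been kept for 24 h in medium conditioned by AE17 cells, a murine mesothelioma line (AE17-TCM). Macrophages treated in this way are called tumor-educated macrophages (TEMs). The 4 control samples were TEMs of Phgdhfl/fl mice, in which both alleles of Phgdh are floxed and no Cre is present. The 4 PHGDH-deficient samples were TEMs of Phgdhfl/fl Cx3cr1-Cre mice, which carry the same floxed alleles and in addition 1 Cx3cr1 allele that expresses the Cre recombinase (Cx3cr1 cre/+). The mice were 6 to 8 weeks old littermates on the C57BL/6 background. Their bone marrow was differentiated for 7 days with 20% supernatant of L929 cells, a fibroblast line used as a source of CSF1, before the AE17-TCM was given.

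CSF1, which macrophages, stromal cells and tumor cells can secrete, binds the receptor tyrosine kinase CSF1R and keeps macrophages alive and differentiated. CSF2 (GM-CSF) binds a receptor made of the specific chain CSF2RA and the common beta chain CSF2RB, which also serves interleukin-3 and interleukin-5, and CSF3 (G-CSF) binds CSF3R, the receptor of the neutrophil lineage. Inside the cell, PU.1 (the product of Spi1), C/EBPalpha, C/EBPbeta, IRF8 and EGR2 set myeloid identity, and PU.1 itself switches on several of the CSF receptor genes.

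In TEMs of both genotypes the most abundant of the 10 transcripts was that of Csf1r, and its level differed between the genotypes by less than the spread between samples. In PHGDH-deficient TEMs the transcripts of Csf1, Csf2rb and Csf3r were higher, by 48.2% for Csf1, and those of Spi1, Irf8, Cebpa and Csf2ra were lower. The differences of Cebpb and Egr2 did not pass the test. Values are normalized read counts, the reads of a gene divided by the size factor of the sample. The test was limma on log2(normalized count + 1), run on all 13629 genes whose mean reached 10 and adjusted over them by Benjamini and Hochberg, and a gene was called at an adjusted p under 0.05. By this rule 7 of the 10 genes were called, 3 of them higher and 4 lower. Over all genes tested 41.0% were called, 20.8% as higher and 20.3% as lower, and among the 6283 genes with a mean of at least 1000, where all members except Csf1 lie, 56.9% were called. The groups did not overlap for the same 7 genes, against 36.7% of all genes. With count models on the recovered reads the same 7 were called, where edgeR called 41.1% and DESeq2 37.2% of all genes. The count of called members is read against these shares, since differences between the genotypes were common, also among abundant genes. The median log2 difference of the 10 genes was 0.03, beside -0.0018 over all genes tested.

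**Figure D1:**
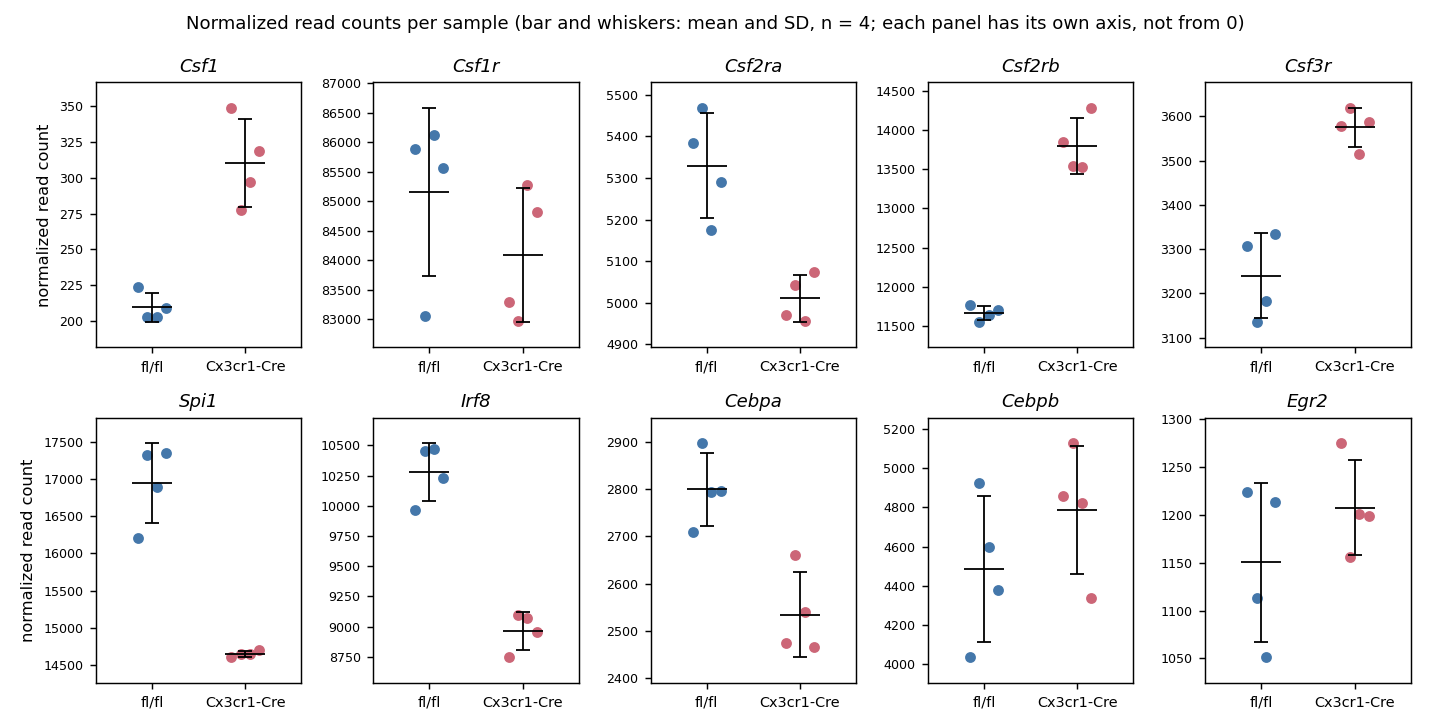
Normalized read count of each of the 10 genes in the 4 Phgdhfl/fl samples (left of each panel) and the 4 Phgdhfl/fl Cx3cr1-Cre samples (right of each panel). Points are samples, the long bar is the mean and the whiskers are the SD, and each panel has its own axis that does not start at 0. The groups are apart for Csf1, Csf2ra, Csf2rb, Csf3r, Spi1, Irf8 and Cebpa, and they overlap for Csf1r, Cebpb and Egr2.

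The samples held between 38219563 and 47027420 reads counted on genes. Phgdh itself, which encodes the first enzyme of serine synthesis, was measured at 119.0, 128.9, 116.8 and 104.9 normalized counts in the Phgdhfl/fl samples and at 32.6, 35.3, 14.2 and 26.3 in the Phgdhfl/fl Cx3cr1-Cre samples, a ratio of 0.231. Cx3cr1, the locus that carries Cre, had a ratio of 0.614. No sample carried Cre without floxed Phgdh. Loss of Phgdh, presence of Cre and the changed Cx3cr1 allele therefore cannot be told apart here. Of 8 macrophage markers all were measured, with a summed level of 955027 to 1045961 normalized counts in Phgdhfl/fl TEMs and 938331 to 1013104 in PHGDH-deficient TEMs, most of it from Lyz2. Of these 8, 4 were lower in PHGDH-deficient TEMs, namely the Fc receptor gene Fcgr1 (log2 difference -0.40), Cd14 (-0.32), the integrin gene Itgam (-0.19) and Adgre1 (-0.08), which encodes F4/80. The mannose receptor gene Mrc1 was higher (0.28), and Cd68, Mertk and Lyz2 did not pass the test. Their part in the differences of the members was not tested. The summed level of 5 monocyte markers was 1800 to 2062 in the controls and 1091 to 1212 in the PHGDH-deficient samples, with Ccr2 and F13a1 lower. The 6 T and NK cell markers and the 5 mast cell markers were not analysed here. The neutrophil, B cell and dendritic cell markers stand beside the genes they concern below. On the second principal component replicates 1 and 4 of both genotypes stood apart from replicates 2 and 3. All 10 genes had the same sign of difference within both pairs of replicates. On the first component Phgdhfl/fl replicate 1 was at -14.02 and the other controls at -21.25 to -20.04. Leaving this library out gave 5917 called genes, against 5594 with all 8 samples. In bulk RNA a lower value can mean fewer cells of a type or less RNA per cell, and these cannot be told apart here.

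Csf1 was the only ligand among the members and the one with the largest fold difference. Its normalized counts were 224.0, 202.5, 202.6 and 208.9 in the Phgdhfl/fl samples and 348.8, 277.5, 296.8 and 319.0 in the PHGDH-deficient samples. The lowest PHGDH-deficient sample thus lay above the highest control. The mean rose from 209.5 ± 10.1 to 310.5 ± 30.6 (SD, n = 4 each), a log2 difference of 0.56 (SE 0.08, 95% interval 0.40 to 0.73, adjusted p = 7.52e-06). With any one of the 8 samples left out the ratio of the means lay between 1.42 and 1.53. The value rested on 196 to 328 reads per sample, far fewer than for any other member, and Csf1 was the member with the lowest level per length. Within replicates 1 and 4 the log2 difference was 0.62, and within replicates 2 and 3 it was 0.50. Csf1 (ENSMUSG00000014599) lies on chr3:107741048-107760469 on the minus strand of mm10.

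Csf1r, the receptor for CSF1 and the gene most used to mark macrophages, had 85883.4, 83047.8, 86127.9 and 85565.2 normalized counts in the Phgdhfl/fl samples and 83292.6, 82958.5, 85276.9 and 84808.1 in the PHGDH-deficient samples. The groups overlapped almost entirely. The log2 difference was -0.02 (SE 0.02, adjusted p = 0.539), with a 95% interval of -0.06 to 0.03. The small negative sign turned to 0.02 (adjusted p = 0.517) under quantile normalization. The exon sequence of Csf1r shares 873 bases with Hmgxb3 on the opposite strand, whose mean normalized count was 1590.

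The receptor chains for CSF2 moved in opposite directions. Csf2rb, the common beta chain, had 11775.1, 11555.6, 11641.5 and 11703.2 normalized counts in the Phgdhfl/fl samples and 13849.5, 13536.3, 13527.0 and 14280.9 in the PHGDH-deficient samples. All PHGDH-deficient samples were higher than all controls, by more than any spread within a group. This was a log2 difference of 0.24 (SE 0.02, adjusted p = 2.64e-08) and a ratio of the means of 1.18. Csf2ra, the chain that gives the receptor its specificity for CSF2, had 5384.6, 5468.1, 5175.7 and 5290.2 normalized counts in the controls and 4969.8, 5043.5, 4957.0 and 5073.8 in the PHGDH-deficient samples. The groups did not overlap, although the highest PHGDH-deficient sample came close to the lowest control. The mean fell from 5329.7 ± 126 to 5011.0 ± 56.6 (SD, n = 4 each), a log2 difference of -0.09 (SE 0.02, adjusted p = 0.00629), the smallest difference that was called among the 10 genes.

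The mouse has a neighboring copy of the common beta chain gene, Csf2rb2, which encodes a chain used by the interleukin-3 receptor. The coding sequences of Csf2rb (2691 bases) and Csf2rb2 (2637 bases) were 95.2% identical over 2631 aligned bases, with a longest identical run of 242 bases. The first 150 bases of that run are shown because a read from this stretch cannot be assigned to either gene by its letters. They lie in the last exon of both genes (exon 15 of 15 and exon 14 of 14), at chr15:78348577-78348726 on the plus strand for Csf2rb and chr15:78284722-78284871 on the minus strand for Csf2rb2 (mm10), coding bases 2083 to 2232 in both:
Csf2rb and Csf2rb2: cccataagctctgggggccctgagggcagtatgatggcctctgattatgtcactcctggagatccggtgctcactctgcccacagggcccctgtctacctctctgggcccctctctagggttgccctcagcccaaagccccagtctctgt
Of all stretches of the read length of 75 bases, 7.15% of those in Csf2rb and 10.6% of those in Csf2rb2 were shared. Csf2rb2 was measured at 9810.8, 9546.4, 9694.0 and 9683.5 normalized counts in the controls and at 10923.0, 10954.8, 10602.2 and 11007.3 in the PHGDH-deficient samples. It was higher in all 4 of the latter, with a log2 difference of 0.17 (SE 0.02, adjusted p = 2.85e-06). How the counting split reads between the copies is uncertain for these shared stretches, and the values of both genes carry that limit.

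Csf3r, the G-CSF receptor gene, had 3307.7, 3135.8, 3181.7 and 3333.4 normalized counts in the Phgdhfl/fl samples and 3576.9, 3618.7, 3515.4 and 3587.7 in the PHGDH-deficient samples. The groups did not overlap. The log2 difference was 0.14 (SE 0.03, 95% interval 0.09 to 0.20, adjusted p = 0.000262). Csf3r is also a gene of neutrophils, and of 10 neutrophil markers 1 was analysed here, S100a8, a calcium-binding protein gene. Its level was 466.7 to 574.7 normalized counts in the controls and 575.7 to 631.3 in the PHGDH-deficient samples (log2 difference 0.23, adjusted p = 0.0044). The part of such cells in the level of Csf3r was not tested.

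**Figure D2:**
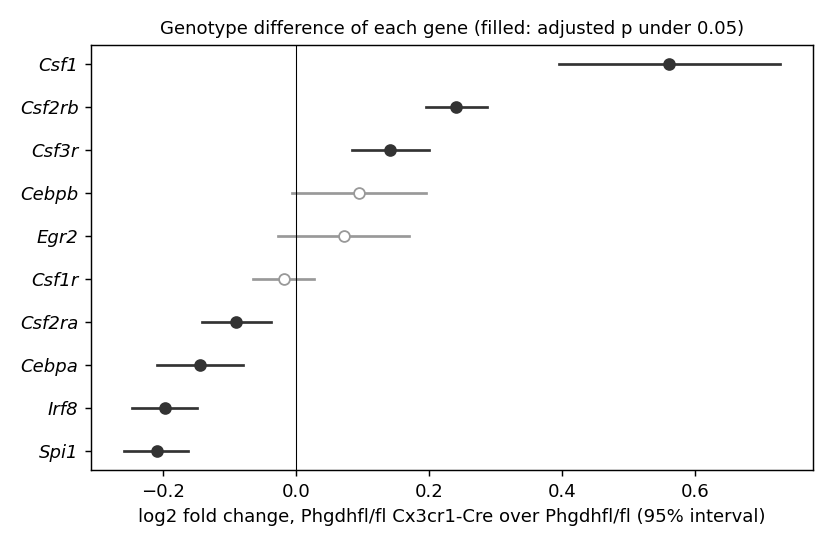
Log2 difference between genotypes for each of the 10 genes (points, Phgdhfl/fl Cx3cr1-Cre over Phgdhfl/fl) with its 95% interval (lines), filled where the adjusted p was under 0.05. Csf1 lies farthest from 0 at 0.56, the 4 genes called as lower lie between -0.21 and -0.09, and the intervals of Cebpb, Egr2 and Csf1r include 0.

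Among the transcription factors, Spi1 was lower in PHGDH-deficient TEMs. PU.1, its product, is an ETS factor that acts at most macrophage enhancers. Its normalized counts were 16206.9, 17328.4, 16896.9 and 17348.3 in the Phgdhfl/fl samples and 14605.6, 14647.3, 14649.3 and 14707.8 in the PHGDH-deficient samples. The latter lay close together, with an SD of 42.0 against 534 in the controls, and all of them lay below the lowest control. On the log2 scale Spi1 differed by -0.21 (SE 0.02, adjusted p = 3.41e-07), a ratio of 0.865. Spi1 (ENSMUSG00000002111) lies on chr2:91082390-91115756 on the plus strand.

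Irf8, whose product pairs with PU.1 and directs precursors to the monocyte and dendritic cell fates, was lower by nearly the same amount. Its normalized counts were 9964.2, 10455.8, 10468.3 and 10226.4 in the controls and 8748.0, 9096.6, 9068.1 and 8958.1 in the PHGDH-deficient samples, without overlap. For Irf8 the log2 difference came to -0.20 (SE 0.02, adjusted p = 8.4e-07), a ratio of 0.872. Irf8 is abundant in dendritic cells and B cells too. Of 7 dendritic cell markers 4 had a value in the table, with a summed level of 44.6 to 72.5 normalized counts in the controls and 65.5 to 95.6 in the PHGDH-deficient samples. Only 2 of them reached the filter, Zbtb46 (0.79, adjusted p = 0.0642) and Ccr7 (0.39, adjusted p = 0.131), and neither was called. Of 6 B cell markers 2 had a value, with a sum of 197.1 to 252.8 in the controls and 130.5 to 166.7 in the PHGDH-deficient samples, and nearly all of it was Cd79b (means of 230.8 and 149.0). The part of such cells in the level of Irf8, which was 8748.0 or more in every sample, was not tested.

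The C/EBP members differed in their calls. Cebpa, needed for the step from progenitor to myeloid cell, had 2710.0, 2897.4, 2795.1 and 2796.3 normalized counts in the Phgdhfl/fl samples and 2473.1, 2660.5, 2538.5 and 2464.4 in the PHGDH-deficient samples. The groups did not overlap, with the highest PHGDH-deficient sample just below the lowest control. The log2 difference was -0.14 (SE 0.03, adjusted p = 0.000831). Cebpb, which acts in inflammatory and alternatively activated macrophages, had 4036.6, 4924.1, 4598.9 and 4381.0 normalized counts in the controls and 4858.4, 5125.6, 4823.8 and 4338.5 in the PHGDH-deficient samples. The groups overlapped across most of their range. The log2 difference of 0.10 (SE 0.05, 95% interval -0.01 to 0.20) did not pass the test (adjusted p = 0.123), and the exact two-sided permutation test over the 70 labelings gave p = 0.314. The difference of Cebpb was called when Phgdhfl/fl replicate 2 was left out (0.14, adjusted p = 0.023) or when Phgdhfl/fl Cx3cr1-Cre replicate 4 was left out (0.14, adjusted p = 0.0213). With 1 sample left out the log2 difference ranged from 0.05 to 0.14. The lowest value came without Phgdhfl/fl replicate 1, where Cebpb was not called. With all 8 samples it was also called in the fit with a replicate block (adjusted p = 0.0331) and in the fit with a term for replicates 1 and 4 against 2 and 3 (adjusted p = 0.0402), so that the call of Cebpb depended on single libraries and on the model. Cebpb shares 312 exon bases with Tmem189 on the opposite strand, which had a mean normalized count of 7950. The strand setting of the counting is not given in the sources used here. Whether the difference of Cebpa and that of Cebpb differ from each other was not tested.

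Egr2, a zinc finger factor of the alternatively activated and tissue macrophage programme, had 1224.4, 1112.8, 1051.3 and 1213.5 normalized counts in the Phgdhfl/fl samples and 1274.8, 1155.7, 1200.6 and 1199.2 in the PHGDH-deficient samples. The groups overlapped. The log2 difference was 0.07 (95% interval -0.03 to 0.17, adjusted p = 0.238, exact permutation p = 0.314), and no other setting tried gave a call.

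To compare the genes with each other, reads were scaled to the exon length of the gene and to the total reads of the sample (FPKM). Among the 13626 tested genes with a length, Csf1r ranked 95, with 340.3 ± 5.45 FPKM in Phgdhfl/fl TEMs and 339.6 ± 4.68 in PHGDH-deficient TEMs (SD, n = 4). Spi1 ranked 277 and had 145.1 FPKM in the controls and 126.8 in the PHGDH-deficient samples. Cebpb followed with 68.8 and 74.2 FPKM. Csf2ra, Csf2rb and Irf8 formed a middle group at 42.8, 37.0 and 33.6 FPKM in the controls and 40.7, 44.2 and 29.6 FPKM in the PHGDH-deficient samples. Cebpa was at 24.5 and 22.4 FPKM and Csf3r at 20.7 and 23.1 FPKM. Egr2 was lower, at 7.81 and 8.29 FPKM, and Csf1 was lowest, at 0.916 and 1.37 FPKM and rank 10054. In the control samples no neighbors in this order overlapped. In the PHGDH-deficient samples Csf2ra and Csf2rb stood in the reverse order, with every sample of Csf2ra (40.25 to 41.16 FPKM) below every sample of Csf2rb (43.41 to 45.71 FPKM). Cebpa (21.77 to 23.59 FPKM) and Csf3r (22.75 to 23.44 FPKM), which were apart in the controls, overlapped there and could not be ordered. The order of Csf2ra, Csf2rb and Irf8 depended on the length used. With the longest transcript in place of all exons, Irf8 stood at 68.4 FPKM in the controls and 60.3 in the PHGDH-deficient samples, Csf2rb at 55.0 and 65.7, and Csf2ra at 54.0 and 51.3. Cebpb stayed at 68.8 ± 5.71 FPKM in the controls (SD), so that by this length its control mean was close to that of Irf8.

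**Figure D3:**
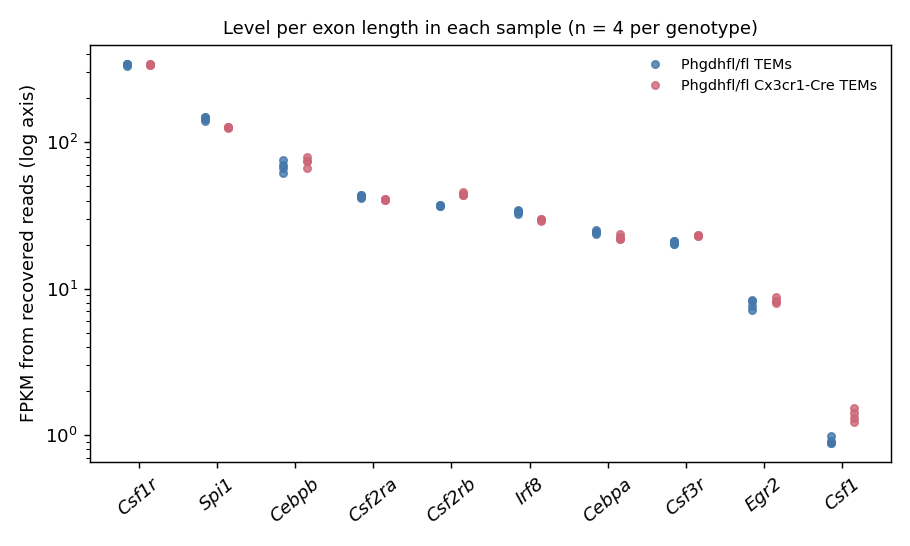
Level per exon length (FPKM from the recovered reads, log axis) of the 10 genes in each of the 4 Phgdhfl/fl samples (left point of each pair) and the 4 Phgdhfl/fl Cx3cr1-Cre samples (right point of each pair), ordered by the control mean. The levels run from Csf1r at about 340.3 FPKM to Csf1 at 0.916 FPKM in the controls, and Csf2ra lies above Csf2rb in the controls and below it in the PHGDH-deficient samples.

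The genes with the most similar profile over the 8 samples were found by the root mean square difference of centred log2 values. The nearest to Csf1 were Ndrg4 (0.0554), Tmod1 (0.0604) and Cst7 (0.0608), where the median over all genes was 0.32. Nearest to Csf2rb were Srxn1 (0.0155), Gpr137b-ps (0.0167) and Plpbp (0.017), with a median of 0.167. Csf1r, which was nearly level over the samples, was nearest to Rnf216 (0.011), Lman2 (0.0111) and Lair1 (0.0118), with a median of 0.103. These distances describe the 8 libraries and share their scaling.

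The promoters of the members were searched for the letters of the PU.1, C/EBP and STAT motifs and of the TATA box. Several CSF receptor genes are classical PU.1 targets. Motifs of IRF and EGR factors were not searched. RefSeq windows of 250 bases before and 50 after a start site (GRCm38.p6, the assembly of mm10) were matched for 7 of the 10 members, in 12 windows. Csf1r, Csf2rb and Spi1 were not matched. The PU.1 core GAGGAAG, read on both strands, was found in the windows of Csf2ra and Csf3r and also in that of Csf2rb2, beside 13.6% of the 32851 promoters. The sites are shown with the match in capitals, each as 30 bases on the strand of its gene, at chr19:61228419-61228448 (minus) for Csf2ra, chr4:126024561-126024590 (plus) for Csf3r and chr15:78305872-78305901 (minus) for Csf2rb2:
Csf2ra: ttcccaacctgcagatGAGGAAGAGGAAGc
Csf3r: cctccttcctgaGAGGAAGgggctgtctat
Csf2rb2: cctctgtgtctgCTTCCTCcagagaagtca
In Csf2ra 2 overlapping matches began at -14 and -8 from the start site. Of its 30 bases shown, 11 lay in an annotated exon, with the second match and part of the first. In Csf3r the match began at -86, inside an exon that the annotation places upstream. In Csf2rb2 the match lay on the opposite strand at -168, with a further match at 28 that is not shown. The gene of this group with a promoter match and a lower transcript was Csf2ra, while Csf3r and Csf2rb2 were higher. The C/EBP letters TTGCNNAA, held by 10.8% of all promoters, were found in no matched window of a member.

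Irf8 is an interferon-responsive gene, and its promoter is shown because it held the letters of the STAT motif. The 250 bases before its start, chr8:120736108-120736357 on the plus strand, held 2 matches to the STAT letters TTCNNNGAA, at -171 and -153, and the letters TATAAA at -31, all in capitals:
Irf8 promoter: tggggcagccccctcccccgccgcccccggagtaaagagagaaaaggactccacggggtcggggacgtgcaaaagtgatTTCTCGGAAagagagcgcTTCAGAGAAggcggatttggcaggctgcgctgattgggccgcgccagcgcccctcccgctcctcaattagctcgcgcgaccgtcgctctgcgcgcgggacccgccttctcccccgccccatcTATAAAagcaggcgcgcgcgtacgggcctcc
The 250 bases before a second start site of Irf8 held no match. The STAT letters were also found in the window of Csf2rb2, at -15. The letters TATAAA were also found in the windows of Cebpa, at -30, and Cebpb, at 21. Over all promoters 8.3% held the STAT letters and 13.6% the letters TATAAA. A match of letters is a description and not evidence of binding.

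The other genes of the system were taken from 7 lists of 118 genes in all. Among further CSF ligands and receptors, 4 were tested. Besides Csf2rb2, the stem cell factor gene Kitl was called, with 490.9, 536.6, 573.7 and 499.0 normalized counts in the controls and 370.2, 433.4, 459.5 and 395.8 in the PHGDH-deficient samples, which were all lower (log2 difference -0.34, adjusted p = 0.000388). Il3ra, the specific chain of the interleukin-3 receptor, was at 0.02 (adjusted p = 0.722). Csf3, the ligand of CSF3R, was near the floor of detection, with means of 1.69 and 1.82 normalized counts, and Kit (4.73 and 5.16) and Flt3 (3.08 and 3.06), the progenitor receptors, were below the filter as well. Il34, Csf2, Il3, Il5 and Il5ra were not analysed here.

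Downstream of CSF1R, 27 genes of signalling and receptor turnover were tested, of which 8 were higher and 9 lower (63.0% called, median log2 difference -0.01). This stands beside 41.0% called over all genes tested and 56.9% among those with a mean of at least 1000. The highest was Src, a kinase recruited by the activated receptor, with 383.0, 356.2, 354.6 and 385.4 normalized counts in the controls and 575.0, 557.0, 529.7 and 535.9 in the PHGDH-deficient samples (0.57, adjusted p = 6.01e-08). Its groups were far apart. Cbl, the ubiquitin ligase that sends CSF1R to degradation, rose by 0.34 on the log2 scale (adjusted p = 2.92e-07), and Sos1, the exchange factor for Ras, by 0.21. On the lower side were Dok2, an adaptor that restrains the Ras pathway (2568.7 ± 82.6 to 1777.8 ± 65.1 normalized counts, -0.53, adjusted p = 7.45e-11), the ERK phosphatase gene Dusp5 (-0.57) and Ptpn6, which encodes the phosphatase SHP-1 (-0.17).

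In the JAK-STAT arm, which carries the signal of the CSF2 and CSF3 receptors, 8 of 15 tested genes were higher and 2 were lower (66.7% called, median 0.09). Over all genes tested 41.0% were called, and 56.9% of those with a mean of at least 1000. The genes highest in this arm were feedback targets. Socs3, which binds CSF3R and other receptors and limits their signal, had 1011.5, 1082.4, 970.6 and 976.9 normalized counts in the controls and 1486.3, 1426.9, 1322.6 and 1378.1 in the PHGDH-deficient samples, without overlap (0.47, adjusted p = 2.14e-08). Cish, a STAT5 target that restrains the beta chain receptors, rose from 142.6 ± 19.7 to 186.5 ± 11.4 (0.39, adjusted p = 0.00347), and Pim1, a kinase gene induced by STAT5, from 4435.5 ± 208 to 5816.8 ± 114 (0.39, adjusted p = 1.26e-09). Jak2, the kinase bound to the beta chain, was higher by 0.20. The repressor gene Bcl6 was lower (-0.17, adjusted p = 1.2e-05). Stat3 (-0.01) did not pass the test. Of the other listed STAT targets, Socs2 (-0.56, adjusted p = 0.186, means of 13.4 and 8.55), Bcl2l1 (-0.05) and Mcl1 (-0.02) did not pass either.

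**Figure D4:**
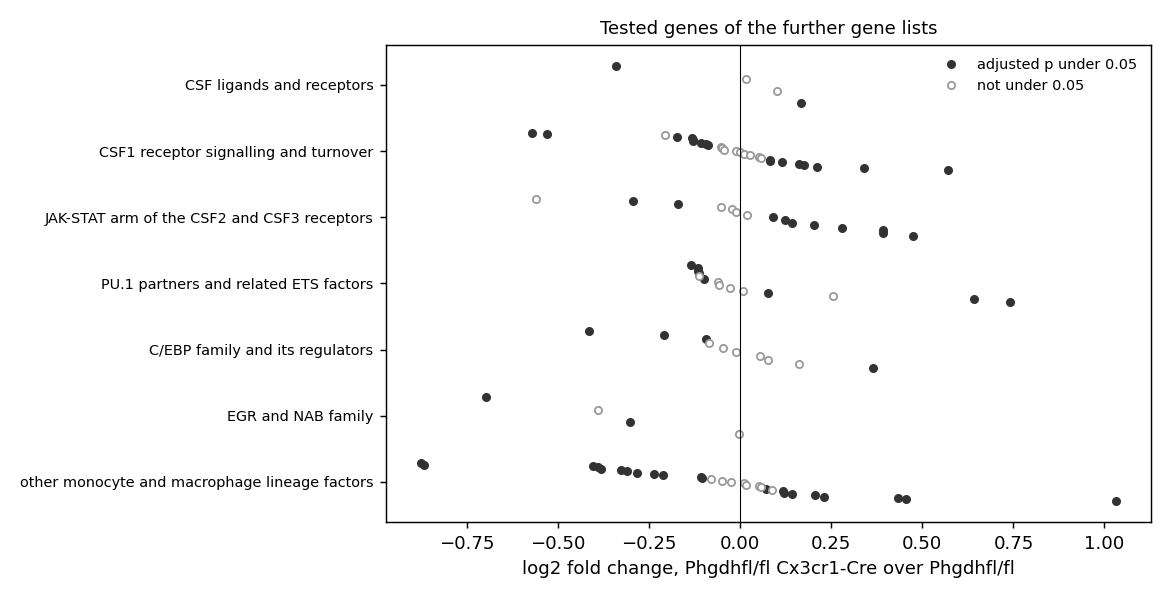
Log2 difference between genotypes for each tested gene of the 7 further lists (Phgdhfl/fl Cx3cr1-Cre over Phgdhfl/fl), one row of points per list, filled where the adjusted p was under 0.05. Called genes lie on both sides of 0 in every list except the EGR and NAB list. In the JAK-STAT list 8 of 15 genes lie to the right and are filled. The 2 called genes of the 4 in the EGR and NAB list lie to the left. Over all genes tested 41.0% were called.

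Among partners of PU.1 and related ETS factors, 3 of 14 tested genes were higher and 5 lower (57.1% called, median -0.06). The share over all genes tested was 41.0%, and 56.9% among those with a mean of at least 1000. The higher ones were led by close relatives at low levels. Spib, the ETS factor most like PU.1, was at 22.3, 25.8, 22.7 and 36.3 normalized counts in the controls and 38.3, 48.8, 52.9 and 39.9 in the PHGDH-deficient samples (0.74, adjusted p = 0.00581). Irf4, the relative of Irf8, was at 35.2 ± 5.48 in the controls and 55.1 ± 4.83 in the PHGDH-deficient samples (0.64, adjusted p = 0.00451). Elf4 was higher by 0.08 (adjusted p = 0.0379). The lower ones included the ETS genes Etv6 (-0.14) and Fli1 (-0.12) and Cbfb (-0.12), the partner of RUNX factors.

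Of 10 tested genes of the C/EBP family and its regulators, 1 was higher and 3 were lower (median -0.03), and these 4 of 10 called genes stand beside 41.0% called over all genes. Ddit3, which encodes the stress-induced C/EBP relative CHOP, rose from 1342.0 ± 118 to 1725.5 ± 126 normalized counts (0.36, adjusted p = 1.47e-05). Trib1, the pseudokinase that directs the degradation of C/EBPalpha, was at 739.1, 711.5, 795.9 and 761.3 in the controls and 508.6, 557.0, 645.5 and 550.5 in the PHGDH-deficient samples, all of them lower (-0.42, adjusted p = 1.22e-05). Cop1, the ubiquitin ligase that works with TRIB1, was also lower (-0.21, adjusted p = 6.19e-05). So was Cebpz, which is in this list by its gene name only (-0.10, adjusted p = 0.0195). Cebpd, the relative of Cebpb, was at -0.09 (adjusted p = 0.189). Transcripts of Cebpa and of both genes of this degradation machinery were thus lower, while the protein was not measured.

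Of the EGR and NAB genes, 2 of 4 tested were lower and none was higher (median -0.35), beside 41.0% called over all genes. Egr1, the immediate-early relative of Egr2, had 235.2, 250.3, 230.5 and 251.9 normalized counts in the controls and 172.1, 145.5, 186.0 and 105.0 in the PHGDH-deficient samples, without overlap (-0.70, adjusted p = 0.000127). Nab2, the corepressor of EGR factors that they themselves induce, fell from 1776.5 ± 44.5 to 1439.0 ± 41.0 (-0.30, adjusted p = 3.42e-07). Egr3 was at -0.39 (adjusted p = 0.0898) and Nab1 at -0.003 (adjusted p = 0.938). The difference between the changes of Egr1 and Egr2 was not tested.

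Among 29 other factors of the monocyte and macrophage lineage, 9 were higher and 12 lower (72.4% called, median -0.02). The share over all genes tested was 41.0%, and 56.9% among those with a mean of at least 1000. The inhibitors of DNA binding Id1 (162.0 ± 10.9 to 87.9 ± 8.38 normalized counts, -0.88) and Id3 (564.4 ± 16.3 to 308.9 ± 19.0, -0.87, adjusted p = 2.32e-10) fell the most. Klf2, a factor of quiescence, fell by 0.41 on the log2 scale. Maf, a factor of resident macrophages, had 25311.1, 26276.5, 25613.0 and 25350.8 normalized counts in the controls and 19067.9, 20623.0, 20470.4 and 18145.8 in the PHGDH-deficient samples (-0.39, adjusted p = 2.81e-09). On the higher side stood Bach2, at 11.1 ± 4.01 and 22.7 ± 4.07 and thus near the filter (1.03, adjusted p = 0.00959), Bhlhe41, a factor of alveolar and other resident macrophages (7444.6 ± 36.4 to 10211.6 ± 354, 0.46, adjusted p = 6.72e-12), and Tfec, a macrophage-specific factor (0.43).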

How the data were processed

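RNA-seq of 8 samples was used, 4 per genotype, grouped by the submitters' labels. The labels number the 4 samples of a genotype as replicates, and the study calls them biologically independent. Which mice gave them is not stated. The authors mapped single-end reads of 75 bases to mm10 with TopHat2, counted them per gene with HTSeq 0.6 and used DESeq2. What the authors deposited as signal values, under the name FPKM, are read counts after division by each sample's size factor. The deposited table also holds comparison columns (fold change, its error, p-values), which were not used. Whole reads were recovered for 100% of 144353 values above 0 (tolerance 0.01), and totals of these were 38219563 to 47027420 per sample. For genes with few reads, such as Csf1, counting limits the precision.

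Tests between the genotypes used limma 3.58.1 under R 4.3.3 (lmFit, then eBayes with trend and Benjamini-Hochberg adjustment, two-sided) on log2(normalized count + 1) for genes with a mean of at least 10. Single genes were also tested by exact permutation over 70 labelings, whose smallest two-sided p is 0.0286. edgeR 4.0.16 and DESeq2 1.42.0 on the recovered reads were alternatives, beside those in the closing section. Scripts were tested on simulated counts. Further genes named are the 3 highest and 3 lowest called genes of each list and genes with a role beside a member. Of these, 2 genes are not reported here. FPKM, overlaps and exons came from GENCODE for mm10, and promoters from RefSeq. The members and lists were chosen with earlier results of these data known. The lowest total of a gene in the table was 10 reads over the 8 samples.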

Additional observations from a re-analysis of the deposited data

Results flagged for a closer look

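Among the 45 named genes, each genotype was checked for 1 sample far from the other 3, which chance alone gives in about 1 of 20 groups. In 7 of 90 groups a sample stood apart, and none of these was a group of the 10 genes themselves. In Phgdhfl/fl Cx3cr1-Cre TEMs, replicate 2 of Egr3 was at 57.16 normalized counts (others 35.98 to 38.26), replicate 4 of Ptpn6 at 17504.9 (others 17856.5 to 17922.8), and replicate 2 of Tfec at 420.9 (others 443.2 to 444.5). In Phgdhfl/fl TEMs, replicate 1 of Elf4 was at 4411.3 (others 4109.6 to 4134.8), replicate 3 of Cebpz at 1845.2 (others 1780.1 to 1788.8), replicate 1 of Klf2 at 1424.2 (others 1542.7 to 1563.8) and replicate 3 of Tfec at 289.4 (others 336.5 to 337.7).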

How the results depend on the processing

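The alternatives were a pseudocount of 0.1, no filter, a mean of at least 100, quantile normalization, scaling to total reads, eBayes without trend, a replicate block, a term for replicates 1 and 4 against 2 and 3, edgeR, DESeq2, a threshold of 0.01, the longest transcript for FPKM, and leaving out each sample. The 7 called genes kept their direction and an adjusted p under 0.05 in every refit, with log2 differences of 0.50 to 0.61 for Csf1, 0.23 to 0.26 for Csf2rb, 0.13 to 0.16 for Csf3r, -0.23 to -0.16 for Spi1, -0.21 to -0.18 for Irf8, -0.17 to -0.13 for Cebpa and -0.11 to -0.07 for Csf2ra. The largest adjusted p was 0.0282, for Csf2ra. Csf1r turned to 0.015 under quantile normalization. The median of the PU.1 partners moved from -0.059 to -0.100 with a mean of at least 100, where fewer genes were tested, and FPKM moved with the length used.

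Deviations of same-numbered samples correlated weakly and positively (0.0628, 0.0977, 0.126 and 0.0776). Differently numbered samples within replicates 1 and 4 or within 2 and 3 gave similar values (0.0484 to 0.135), so the numbers were not taken as pairs. Across this split all correlations between the genotypes were negative (-0.124 to -0.0356). Deviations from a group mean cancel within each genotype, so the negative values largely follow from the positive ones and are no separate observation. The main fit had no term for the split. Phgdhfl/fl replicate 1 correlated best with Phgdhfl/fl Cx3cr1-Cre replicate 4. With the replicate block 5597 genes were called against 5594, and Cebpb passed (0.10, adjusted p = 0.0331). It also passed with the term for replicates 1 and 4 (adjusted p = 0.0402), and the cause was not tested.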
